A study of Rattus norvegicus with 20 samples.

Results

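Among the 1185 probes of a rat lung array series, 30 read lower in each of the 3 Day 35 arrays than in any of the 5 NL arrays. They were chosen by that rule alone, applied to the deposited values as they stand: the highest Day 35 value had to lie below the lowest NL value. These 30 probes are 2.53% of the table, and 54 probes (4.56%) met the mirror rule, with every Day 35 array above every NL array. The Day 35 and NL values therefore chose the probes and are given below as a description, without a test. The arrays of Day 14, Day 21, Day 28, T and Normal Day 0 played no part in the choice.

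The study followed the growth of a neointima and pulmonary hypertension in rats over time, using total RNA of whole lung. Its 20 arrays are titled NL (5 arrays, numbered 2 to 6), Day 14 (2 arrays, 7 and 8), Day 21 (3 arrays, 9 to 11), Day 28 (3 arrays, 12 to 14), Day 35 (3 arrays, 15 to 17), T (3 arrays, 18 to 20) and Normal (Day_0), a single array. The titles do not expand NL or T. The labels give no strain, age, sex, surgery, agent or dose, and no statement of whether each array came from a separate rat. P-values thus measure the spread between these arrays, which may be technical. In whole lung, fewer cells of a type and less RNA per cell cannot be told apart.

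As background, a neointima is a layer of cells and matrix that builds up inside the wall of small pulmonary arteries, beneath the endothelium. It narrows the lumen, raises the resistance of the lung circulation and loads the right ventricle. A probe that falls in whole lung during such a disease can report on the vessels, on the airways and alveoli, or on blood and inflammatory cells, because all of them contribute RNA. The table used here carries probe identifiers without gene names, so the 30 probes are described by identifier, and the lung's marker genes could not be checked. No probe sequence was in the files used here either.

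Values are on the deposited scale, which is centred on the median probe of each array and looks logarithmic, with no stated base. A value of 0 is therefore the middle of an array, and differences are in deposited units and are not folds. The arrays differed in spread. The interquartile range, the width of the middle part of an array's values, was narrowest in NL arrays 5 and 6, at 0.42, and widest in array 11 of Day 21, at 1.75. Within groups it ran from 0.42 to 1.49 in NL, from 1.21 to 1.45 at Day 14 and from 0.64 to 1.75 at Day 21. It ran from 0.49 to 1.64 at Day 28, from 1.07 to 1.28 at Day 35 and from 0.61 to 1.54 in T. The SDs and tests below thus mix narrow and wide arrays within NL, Day 21, Day 28 and T. The number of arrays limits the precision of everything that follows.

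Most of the 30 probes sat near the middle of the arrays. Over the 12 arrays that the rule did not use, 24 of the 30 had a mean within 0.5 of 0, against 48.5% of all probes. The other 6 (R042, R134, R291, R594, RG207 and RG468) had a mean above 0.5, against 30.4% of all probes. None had a mean below -0.5, where 21.1% of all probes lay, and none was among the brightest 10.0% of probes by this mean. The rule itself left little room for low probes. The lowest value in Day 35 array 17 was -0.65, so a probe with any NL value at or below that could not be chosen. The identifiers carry one of 2 prefixes: 18 of the 30 begin with R and 12 with RG, or 60.0% and 40.0%, against 59.2% and 40.8% of all probes. No pair of the 30 had consecutive numbers.

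The separation that chose the probes was small for most of them. The gap between the lowest NL and the highest Day 35 value ran from 0.01 to 0.43, with a median of 0.08. The difference of the Day 35 mean from the NL mean ran from -2.13 to -0.16, with a median of -0.43, against -0.03 over all probes. In 19 of the 30 it was smaller than 0.5 in size, and in 3 (R042, R056 and RG468) it was 1 or more. Just inside the rule, R042 and R256 had a gap of 0.01 and R291, R528 and R562 had one of 0.03. Just outside it, R499, R712 and RG053 missed it by 0.01, each with its highest Day 35 value above its lowest NL value by that amount.

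**Figure D1:**
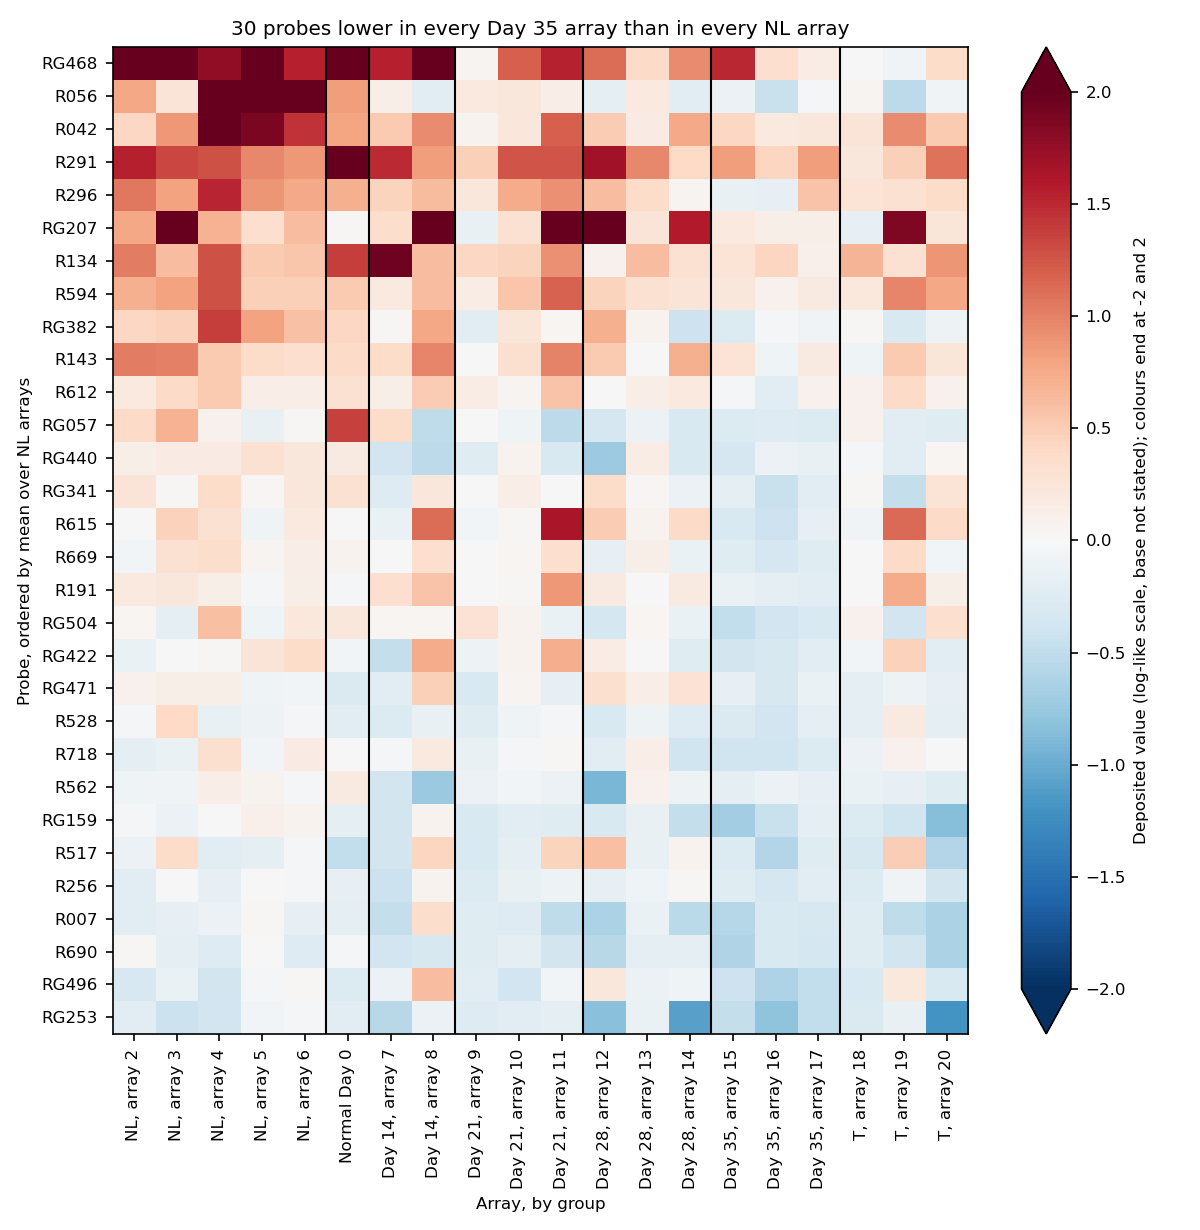
Deposited value of each of the 30 probes (rows, ordered by NL mean) in each of the 20 arrays (columns, by group; black lines part the groups), with red above and blue below the array median of 0. The Day 35 columns lie below the NL columns in every row because the rule chose them so; RG468, R056 and R042 have the 3 highest NL means, and RG207 is red in single arrays of several groups.

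The probe with the widest gap was RG382. It read 0.41, 0.46, 1.38, 0.80 and 0.58 in NL arrays 2 to 6 and -0.27, -0.02 and -0.07 in the Day 35 arrays. In the groups that played no part it read 0.02 and 0.78 at Day 14, -0.21, 0.24 and 0.04 at Day 21, 0.71, 0.07 and -0.41 at Day 28, and 0.03, -0.31 and -0.10 in T. All Day 21 and all T arrays lay below the lowest NL array, while one array each of Day 14 and Day 28 read inside the NL range. The Normal Day 0 array read 0.42, at the low edge of NL.

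RG468 had the highest NL mean of the 30. It read 2.45, 2.95, 1.78, 2.06 and 1.56 in NL arrays 2 to 6, and the Normal Day 0 array read 2.92. Day 14 read 1.56 and 2.85, both within the range of the NL arrays. From Day 21 on the values were lower: 0.06, 1.19 and 1.54 at Day 21, 1.12, 0.38 and 0.95 at Day 28, and 1.51, 0.34 and 0.15 at Day 35. T was lowest, at 0.01, -0.07 and 0.36. The spread at Day 35 was wide for this probe (0.67 ± 0.74, SD, n = 3), and the rule held by a gap of only 0.05.

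R056 and R042 were highest in NL arrays 4 to 6, which stood apart from the other NL arrays. R056 read 0.77 and 0.26 in NL arrays 2 and 3 but 4.27, 2.33 and 2.02 in arrays 4 to 6, and R042 read 0.42 and 0.86 against 3.87, 1.88 and 1.45. The Day 35 mean minus the NL mean was -2.13 for R056 and -1.42 for R042 with all NL arrays, and -0.71 and -0.36 with NL arrays 2 and 3 alone. Outside NL, R056 read 0.83 in Normal Day 0, 0.12 and -0.21 at Day 14, 0.20, 0.23 and 0.14 at Day 21, -0.18, 0.19 and -0.21 at Day 28, -0.12, -0.44 and -0.03 at Day 35, and 0.06, -0.53 and -0.07 in T. Each of the 11 arrays of Days 14, 21 and 28 and T thus lay below the lowest NL array for R056, the only one of the 30 for which all did. R042 was mixed outside NL: it ran from 0.07 to 1.20 over the 8 arrays of Days 14 to 28 and from 0.25 to 0.95 in T. It read 0.79 in Normal Day 0, and 4 of the 11 arrays fell below the lowest NL array.

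RG440 separated with little spread in NL. It read 0.12, 0.16, 0.17, 0.30 and 0.22 there and 0.18 in Normal Day 0, against -0.34, -0.12 and -0.15 at Day 35. By group mean it was lowest at Day 14, with -0.39 and -0.52 in the 2 arrays. It read -0.25, 0.07 and -0.31 at Day 21, -0.73, 0.15 and -0.31 at Day 28, and -0.04, -0.22 and 0.04 in T. Apart from Day 28 array 13, each of these 11 arrays lay below the lowest NL array.

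R296 and RG159 also lay below the lowest NL array in 10 of those 11 arrays. R296 read 1.06, 0.80, 1.53, 0.89 and 0.76 in NL and -0.15, -0.16 and 0.57 at Day 35, with 0.44 and 0.63 at Day 14, 0.22, 0.74 and 0.92 at Day 21, 0.61, 0.37 and 0.06 at Day 28, and 0.28, 0.31 and 0.37 in T. RG159 had an NL mean of 0.00 ± 0.09 (SD, n = 5) and read -0.36 and 0.07 at Day 14, the latter inside the NL range, while Day 21 had a mean of -0.26 ± 0.04, Day 28 of -0.31 ± 0.16, Day 35 of -0.44 ± 0.25 and T of -0.51 ± 0.30 (n = 3 each). The Normal Day 0 array lay below the lowest NL array for both, at 0.71 and -0.19.

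R291 and R134 were higher in Normal Day 0 than in any NL array. R291 read 1.56, 1.34, 1.27, 0.96 and 0.87 in NL and 2.02 in Normal Day 0. It read 1.49 and 0.83 on Day 14, 0.47, 1.26 and 1.26 on Day 21, 1.68, 0.96 and 0.40 at Day 28, 0.83, 0.43 and 0.84 at Day 35, and 0.23, 0.48 and 1.08 in T. The days overlapped NL widely for this probe, and 5 of the 11 arrays lay below the lowest NL array. R134 read 0.80 ± 0.34 in NL (n = 5), 1.38 in Normal Day 0, 1.95 and 0.62 at Day 14, and 0.27 ± 0.16 at Day 35 (n = 3). It read 0.41, 0.45 and 0.92 at Day 21 and 0.09, 0.62 and 0.31 at Day 28. In T it read 0.68, 0.31 and 0.89, with a mean of 0.63 ± 0.29 (n = 3) inside the NL range and array 19 below the lowest NL value of 0.53. Of the 11 arrays of the days and T, 5 lay below the lowest NL array.

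RG057 stood out in Normal Day 0 alone. That array read 1.37, where NL read 0.39, 0.70, 0.08, -0.15 and 0.03 and the Day 35 arrays read -0.28, -0.26 and -0.27. Day 14 read 0.37 and -0.51, Day 21 read 0.00, -0.09 and -0.52, Day 28 read -0.34, -0.12 and -0.31, and T read 0.09, -0.23 and -0.25. The 11 arrays of the days and T ran from -0.52, below the Day 35 values, to 0.37, inside the NL range.

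**Figure D2:**
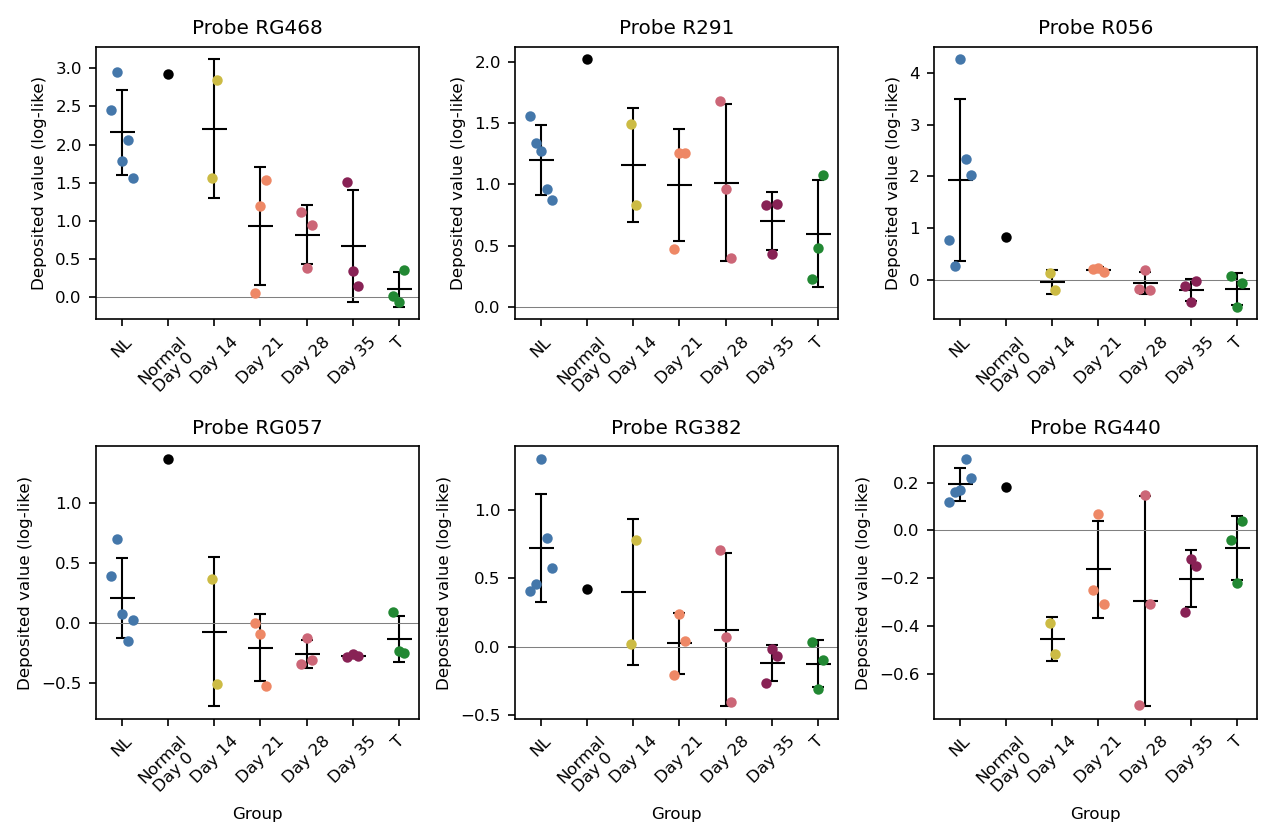
Deposited values of 6 of the 30 probes by group: a point is an array, a short bar with whiskers is the group mean ± SD (no bar for the single Normal Day 0 array), and the vertical scale differs between panels. RG468 runs from 1.56 to 2.95 in NL and from -0.07 to 0.36 in T; R056 is highest in NL arrays 4 to 6; RG057 reads 1.37 in Normal Day 0.

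RG207 was the most variable of the 30 over the unused arrays. It read 3.24 in Day 14 array 8, 2.02 in Day 21 array 11, 3.07 and 1.58 in Day 28 arrays 12 and 14, 1.86 in T array 19 and 2.36 in NL array 3. In the other 14 arrays it lay between -0.16 and 0.78, and the Day 35 arrays read 0.19, 0.12 and 0.11. All of these 6 arrays had a wide spread, with an interquartile range of 1.45 or more, as did T array 20, which read 0.24; the part of array spread in the values of this probe was not tested.

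R615 and R191 were high in some of the same arrays. R615 read 1.12 in Day 14 array 8, 1.63 in Day 21 array 11 and 1.14 in T array 19, and R191 read 0.57, 0.87 and 0.74 there. In NL, R615 ran from -0.08 to 0.46 and R191 from -0.04 to 0.22. Over the 12 unused arrays the pair correlated with Pearson's r of 0.91, and R517 with RG207 also at 0.91. All pairs of the 30 had a median r of 0.18, against 0.03 over all pairs of probes. The points are the same 12 arrays, with their unequal spread, so these are descriptions.

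The other 19 probes, R615 and R191 included, mostly lay nearer to 0. R007, R256, R528, R562, R690, RG253 and RG496 had NL means between -0.23 and 0.02 and Day 35 means between -0.59 and -0.16. R143, R191, R517, R594, R612, R615, R669, R718, RG341, RG422, RG471 and RG504 had NL means between -0.03 and 0.75 and Day 35 means between -0.39 and 0.16. Of these, R594 had the widest gap (0.25): it read 0.75 ± 0.33 in NL (n = 5) and 0.16 ± 0.08 at Day 35, but 0.65 ± 0.40 in T (n = 3 each), where the T arrays overlapped NL. RG341 and R669, with gaps of 0.21 and 0.19, read -0.29 ± 0.14 and -0.27 ± 0.05 at Day 35 and -0.06 ± 0.38 and 0.11 ± 0.24 in T. RG504, with a gap of 0.11, read -0.39 ± 0.10 at Day 35 and 0.01 ± 0.37 in T beside an NL mean of 0.12 ± 0.31.

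Set against NL, the 30 probes were mixed at Day 14, and most had means below NL in the later groups and in Normal Day 0. The median difference of the group mean from the NL mean was -0.06 on Day 14. It was then -0.14 on Day 21 and -0.24 on Day 28, with -0.22 for the T arrays, against medians over all probes of -0.03, -0.02, -0.07 and -0.04. Means lay below NL for 16, 25, 24 and 27 of the 30, or 53.3%, 83.3%, 80.0% and 90.0%, where 52.3%, 54.6%, 56.9% and 54.4% of all probes did. The Normal Day 0 array lay below the NL mean for 20 of the 30 (66.7%; all probes 39.0%), with a median difference of -0.10 (all probes 0.07). These comparisons share the NL arrays with the rule, and a probe chosen for high NL values is favoured to read below NL in any other group. They are therefore given without a test. Without NL arrays 4 to 6 the medians of the 30 were -0.05, -0.15, -0.23 and -0.215 for the days and T, and 0.0025 for Normal Day 0. The Day 14 median rested on its 2 arrays in opposite ways: it was 0.09 without array 7 and -0.33 without array 8.

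Some of the 30 lay wholly outside the NL range in the unused groups. Every array of the group lay below every NL array for 5 of the 30 at Day 14 (all probes 5.15%), 6 at Day 21 (1.27%), 5 at Day 28 (0.844%) and 9 in T (1.52%). Only R056 was among them in each group. The 9 in T were R007, R056, R296, R562, RG159, RG382, RG440, RG468 and RG471. In the other direction, both Day 14 arrays of R191 (0.34 and 0.57) lay above its highest NL value of 0.22 (all probes 2.87%). The 3 Day 28 arrays of RG471 (0.32, 0.14 and 0.29) lay above its highest NL value of 0.12 (all probes 1.69%). At Day 21 and in T, 0 of the 30 lay above NL in this way (all probes 1.94% and 3.04%). The single Normal Day 0 array lay below every NL array for 6 of the 30 (all probes 5.06%) and above every NL array for 4 (all probes 12.7%). Over the 330 single values of the 30 probes in the 11 arrays of the days and T, 166 or 50.3% were below the lowest NL array, against 19.9% over all probes, with the same reuse of NL. The share over all probes differed by array, from 5.99% in Day 21 array 10 to 33.76% in Day 28 array 12. The count of the 30 ran from 7 in Day 14 array 8 (all probes 28.35%) to 19. Day 21 array 9 and T arrays 18 and 20 had 19 (all probes 10.72%, 9.79% and 24.39%).

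The percentile rank of a probe among the probes of its own array is not changed when that array is rescaled. The median percentile rank of the 30 probes ran from 54.1 to 69.4 in the NL arrays and from 34.7 to 39.1 in the Day 35 arrays, which the rule sets apart. The Normal Day 0 array gave 56.1. Day 14 gave 49.3 and 66.1, Day 21 gave 42.6, 55.0 and 53.1, Day 28 gave 54.7, 56.5 and 46.8, and T gave 44.2, 54.2 and 48.1. Each of the 11 arrays of the days and T thus lay above the Day 35 range, and 5 of them (arrays 8, 10, 12, 13 and 19) reached the NL range. Probes chosen for low Day 35 and high NL values are favoured to rank between those groups in any other array. The place of the days and T between them is therefore a description and was not tested.

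**Figure D3:**
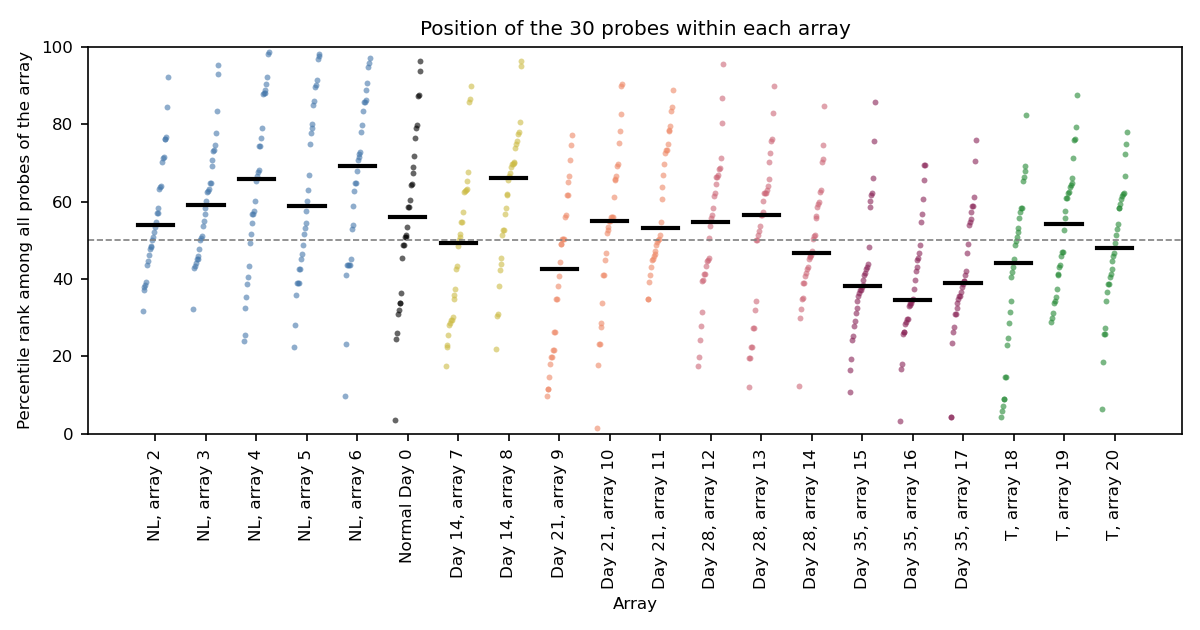
Percentile rank of each of the 30 probes among the 1185 probes of its array (points, one colour per group), with the median over the 30 as a black bar and the middle of the array as a dashed line. The medians are 54.1 to 69.4 in NL, 34.7 to 39.1 at Day 35 and 42.6 to 66.1 in the other groups. The choice of probes by NL and Day 35 favours a place between them for the other groups.

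Comparisons that use neither NL nor Day 35 are independent of the rule, and there no probe of the 30 passed the adjusted threshold. The first asked whether T differed from the mean of Days 14, 21 and 28. In limma, 0 of the 1185 probes were called (0%), with 17 at an unadjusted p under 0.05 (1.43%), 5 of them lower in T (0.422%). Of the 30, RG468 was the 1 among these. It read 0.10 ± 0.23 in T and 2.20 ± 0.91, 0.93 ± 0.77 and 0.82 ± 0.39 at Days 14, 21 and 28, with n = 3, 2, 3 and 3. The difference was -1.22 (SE 0.36, 95% interval -2.01 to -0.42), with a limma unadjusted p of 0.00630 and an adjusted p of 0.999. All T arrays but array 20 lay below all 8 arrays of the days; T array 20, at 0.36, lay above Day 21 array 9, at 0.06. For 0 of the 30 did every T array lie below all 8 arrays of the days (all probes 0.0844%).

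For the other 29 probes the difference of T from the days ran from -0.74 (RG207, 95% interval -2.44 to 0.96) to 0.23 (RG440, -0.24 to 0.70). The next lowest were R291 at -0.46 (-1.17 to 0.25), RG382 at -0.31 (-0.89 to 0.28) and R143 at -0.27 (-0.87 to 0.32). The R291 difference was -0.70 without T array 20 and -0.28 without T array 18. The next highest were R594 at 0.20 (-0.37 to 0.76), R562 at 0.14 (-0.36 to 0.64), R528 at 0.11 (-0.26 to 0.49) and RG057 at 0.05 (-0.45 to 0.55). For 27 of the 30 the interval lay within 1 unit of 0 on both sides. That bound is wide: the Day 35 mean differed from the NL mean by 1 or more in only 3 of the 30, with a median of -0.43. Differences of that median size are thus not excluded by it. Against Normal Day 0 the same bound held for 11 of the 30 over the days and 8 in T. The sign was negative for 20 of the 30 (66.7%), against 46.0% of all probes, and the median was -0.10, against 0.02.

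By pairs of groups, T means lay below Day 14 means for 26 of the 30 (86.7%; all probes 47.5%), below Day 21 for 22 (73.3%; 51.9%) and below Day 28 for 15 (50.0%; 42.8%). Day 28 means lay below Day 14 means for 23 (76.7%; 54.9%). The Day 14 arrays disagreed, which limits the counts against Day 14. The median value of the 30 was -0.015 in Day 14 array 7 and 0.45 in array 8. It was 0.12, 0.07 and -0.09 in the Day 28 arrays and -0.05, 0.135 and -0.03 in the T arrays. Array 7 thus lay within the range of both groups and array 8 above it. The part of array 8 in these counts was not tested. The limma F-test of differences among Days 14, 21 and 28 and T called 0 of the 1185 probes (0%). An unadjusted p under 0.05 was found for 7 probes (0.591%), of which RG468 was the one among the 30 (unadjusted p = 0.00959, adjusted p = 0.999).

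The second independent comparison set the days and T against the single Normal Day 0 array, which is assumed to vary like the other groups. Limma called 0 probes for the mean of Days 14, 21 and 28 minus Normal Day 0 (0%) and 0 for T minus Normal Day 0 (0%). Unadjusted p was under 0.05 for 22 probes (1.86%) and 29 probes (2.45%), of which 20 (1.69%) and 22 (1.86%) were lower than Normal Day 0. Among the 30 there were 3 and 4 (10.0% and 13.3%), each of them lower. RG057, RG468 and R056 were the 3, and R291 joined them in T.

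Among these, RG468 differed from Normal Day 0 by -1.60 over the days (SE 0.56, 95% interval -2.84 to -0.36, limma adjusted p = 0.981) and by -2.82 in T (SE 0.61, -4.17 to -1.47, adjusted p = 0.574). RG057 differed by -1.55 (SE 0.35, -2.33 to -0.77, adjusted p = 0.692) and by -1.50 (SE 0.38, -2.35 to -0.65, adjusted p = 0.966). When each array was rescaled to the same interquartile range, RG057 passed over the days (difference -1.90, limma adjusted p = 0.0301; range over the alternatives 0.0301 to 1). R056 differed by -0.80 (SE 0.30, -1.48 to -0.13, limma adjusted p = 0.981) and by -1.01 (SE 0.33, -1.74 to -0.28, adjusted p = 0.987). R291 differed by -0.96 (SE 0.50, -2.07 to 0.14, limma adjusted p = 0.981) and by -1.42 (SE 0.54, -2.63 to -0.22, adjusted p = 0.987).

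In the other direction, RG207 read 1.37 higher over the days than in Normal Day 0 (95% interval -1.29 to 4.02) and 0.63 higher in T (-2.25 to 3.51). R517 read 0.56 higher over the days (-0.48 to 1.60) and R615 0.44 higher (-0.997 to 1.88). None of these intervals excluded 0. Over the 30, the median difference from Normal Day 0 was -0.09 for the days (all probes -0.13) and -0.21 for T (all probes -0.12), and 63.3% and 66.7% were negative, against 64.6% and 62.3% of all probes. As a set the 30 thus stood near the background in sign in this comparison.

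By order of single arrays, the Normal Day 0 array read above all 8 arrays of Days 14 to 28 for 7 of the 30 (23.3%; all probes 10.4%): R056, R291, R562, R690, RG057, RG440 and RG468. It read above all 3 T arrays for 13 (43.3%; all probes 19.5%). It read below all 8 arrays of the days for R191 and R517 (6.67%; all probes 4.73%) and below all T arrays for 3 (10.0%; all probes 12.2%). Against the Day 35 arrays, which had served in the choice, it read above all 3 for 25 of the 30, where 29.2% of all probes did; the exceptions were R517, R528, RG159, RG207 and RG471.

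**Figure D4:**
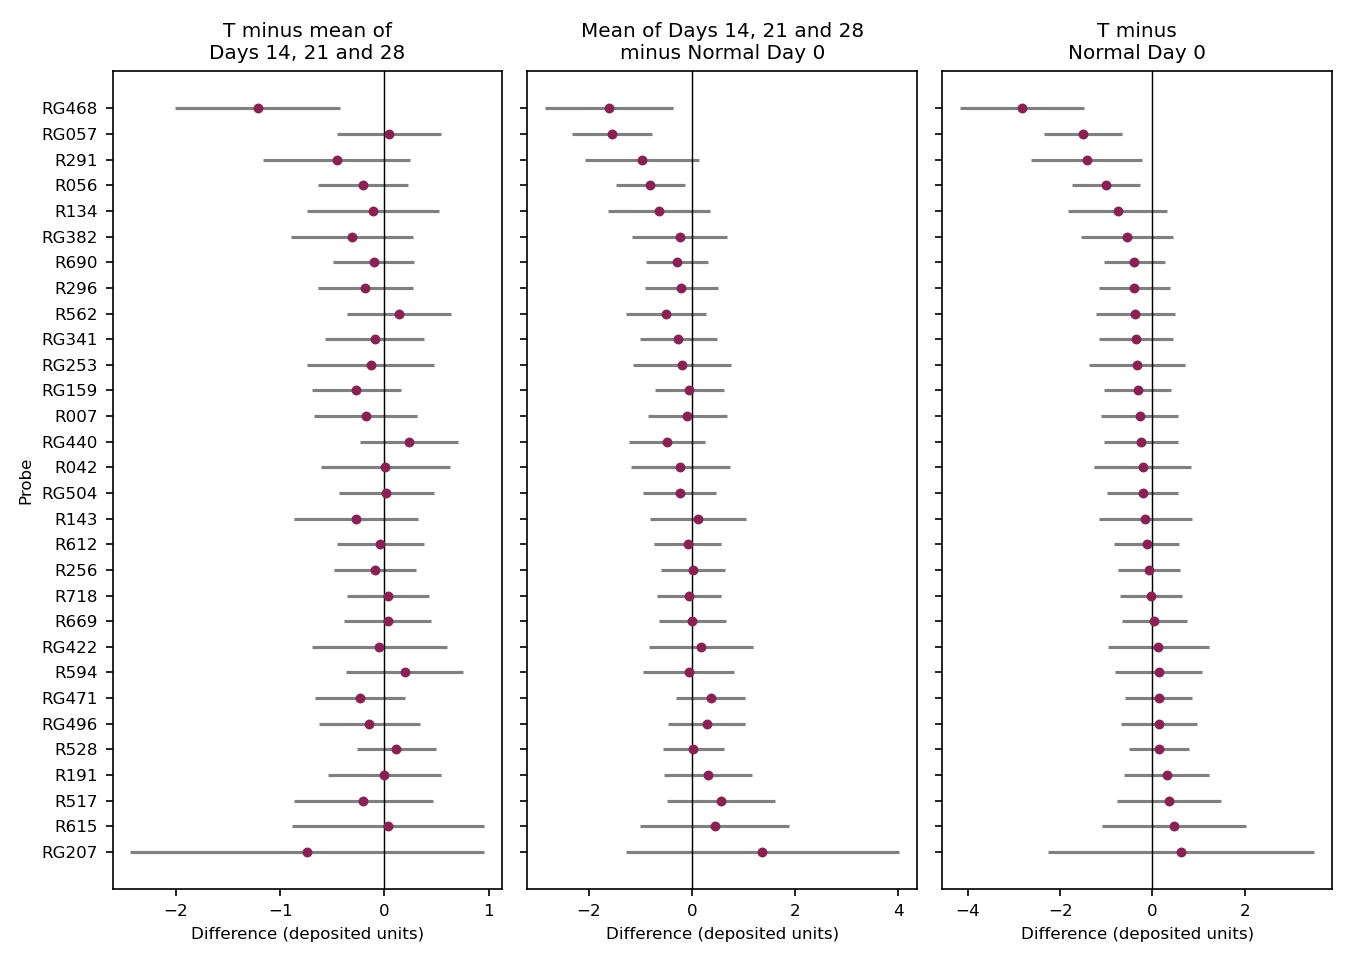
Difference (points, deposited units) with its 95% interval from limma (grey lines) for each of the 30 probes in the 3 comparisons that use neither NL nor Day 35; the rows are ordered by the difference of T from Normal Day 0 and the horizontal scale differs between panels. RG468 lies below 0 in all 3 panels with intervals that exclude 0, RG057 and R056 in both panels against Normal Day 0, and no adjusted p is under 0.05.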

How the data were processed

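The 20 arrays measured total RNA of whole rat lung. The deposited table holds 1 value for each of 1185 probes per array; for the platform, background correction, normalization and scale, the sources used here give nothing, so the authors' values were treated as a score that is centred per array and probably logarithmic. They were used unchanged, with no filter. The 30 probes and the comparisons were chosen with earlier results of these data known. Groups came from the array titles.

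One limma 3.58.1 model (lmFit and eBayes, R 4.3.3) was fitted to all probes over the 12 arrays of Normal Day 0, Day 14, Day 21, Day 28 and T (7 residual degrees of freedom), leaving out NL and Day 35. Tests were two-sided, adjusted by Benjamini-Hochberg over 1185 probes (threshold 0.05); intervals are 95% and unadjusted. The script was tested on simulated data. Named probes were those with the widest gaps, the extreme differences in each comparison and those nearest the rule's limit; RG159 was described in detail after its values were seen. Gene lists fixed in advance could not be used without gene names. Alternatives covered quantile normalization, a common interquartile range, percentile ranks, a filter, all arrays in the fit, trended and robust variances, and arrays left out. Figures were drawn with matplotlib 3.10.9.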

Additional observations from a re-analysis of the deposited data

Results flagged for a closer look

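In NL, the only group of 4 or more arrays, each of the 30 probes was checked for a single array far from the others. NL array 3 stood apart for 2 of the 30: it read 0.40 for R528, where the other NL arrays ran from -0.15 to -0.03, and 2.36 for RG207, where they ran from 0.33 to 0.78. Chance marks about 1 in 20 unselected groups; the rule used these NL values, so that rate need not hold for the 30.

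For R191 both Day 14 arrays lay above every NL array while every Day 35 array lay below (mean difference from NL 0.33 at Day 14). For RG471 the same held for the 3 Day 28 arrays (mean difference 0.21). The Day 35 direction was fixed by the choice of probes, and the difference between time points was not tested.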

How the results depend on the processing

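The rule depended on scale and on single arrays. It gave 53 probes after quantile normalization or on percentile ranks (18 of the 30 among them), 40 with a common interquartile range (20 of the 30), 131 without NL arrays 4 to 6 (all 30), 25 with Normal Day 0 added to NL, and 0 at a gap of at least 0.5. Leaving out 1 array gave 32 to 90, with 48 when NL array 2 was dropped, 70 for NL array 3, 48 for Day 35 array 16 and 90 for Day 35 array 17; dropping arrays can only add probes.

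Of the 30, calls stayed at 0 in every alternative of the 4 tests, except RG057 over the days against Normal Day 0 with a common interquartile range (1 call). Under that scaling RG057 itself did not meet the rule. Over all probes, the days against Normal Day 0 gave 1 call after quantile normalization, 3 with a common interquartile range and 1 with trended and robust variances, and T against Normal Day 0 gave 1 with either scaling. T against the days gave 1 with all 20 arrays in the fit and 0 to 1 with 1 array left out (1 without Day 21 array 9), and the F-test gave 0 to 4 (4 when array 8 was dropped, 1 for array 9). The cause was not tested. No fit against Normal Day 0 was possible without that array. The filter kept 1179 probes and all 30.

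RG468 was lower in T than over the days in all 18 alternatives on the deposited or rescaled values (-1.43 to -0.67). Some of these could not change the difference, which stayed at -1.22. They were the filter, all 20 arrays in the fit, trended and robust variances, and Normal Day 0 left out. The difference was smallest, at -0.67, without arrays 8, 11, 12, 14 and 19. The difference of RG057 between T and the days, 0.05, turned to -0.15 without arrays 8, 11, 12, 14 and 19. Those are the unused arrays in which RG207 read 1.58 or more, so the set follows the data. T array 20, with an interquartile range of 1.54, stayed in. With 1 array left out the RG057 difference ran from -0.10 to 0.19. It was -0.10, -0.0061 and -0.06 when array 8, 11 or 18 was dropped. The median difference from NL was -0.28 in T after quantile normalization and -0.27 with a common interquartile range. For Normal Day 0 it was -0.10 (all probes 0.07), and -0.16 with either scaling, and 0.0025 without NL arrays 4 to 6. With 1 array left out it ran from -0.33 to 0.09 at Day 14, -0.19 to -0.08 at Day 21, -0.31 to -0.20 at Day 28, -0.25 to -0.18 in T and -0.13 to -0.08 in Normal Day 0. No paired analysis was possible because the array numbers are unique.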
